A study of Sus scrofa with 6 samples.

Results

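*SIM1*, a transcription factor gene on pig chromosome 1, carried 4 differentially methylated regions (DMRs) between a glycolytic and an oxidative muscle, all with less methylated DNA in the oxidative muscle. With 1 further DMR within 200 kb, in *ASCC3*, the locus comprised 5 of the 15633 DMRs in the table analysed. The members were chosen by name and position from a list of regions that the authors had selected on their difference in read depth between the muscles. The differences described here are therefore those that placed the regions in the list, and they are given without a test.

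*SIM1* encodes a transcription factor of the bHLH-PAS family, many of whose members bind DNA as pairs, in its case with *ARNT* or *ARNT2*. In mice it is required for neurons of the paraventricular and supraoptic nuclei of the hypothalamus, and loss of 1 copy leads to overeating and obesity. In chick and mouse embryos it marks the lateral part of the dermomyotome, the layer of the somite that gives rise to muscle of the body wall and limbs. *ASCC3* encodes a helicase of the activating signal cointegrator complex, known for the repair of alkylated DNA and for the rescue of stalled ribosomes.

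Methylated DNA immunoprecipitation sequencing (MeDIP-seq) libraries were made from *longissimus dorsi* muscle (LDM), a white, mainly glycolytic back muscle, and *psoas major* muscle (PMM), a red, mainly oxidative loin muscle, with 3 libraries of each. All samples came from female Landrace pigs aged 210 days. The antibody pulls down fragments with methylated cytosines, so the depth at a CpG reflects the methylation and the CpGs of the whole fragment. Values are scaled mean read depths per CpG, in DNA of whole muscle, where a change of methylation within a cell type and a change in the share of that cell type cannot be told apart. The median depth over all DMRs was 26.2 to 28 in the LDM libraries and 23.8 to 25.4 in the PMM libraries. The values were scaled by 1 factor a library. The inverse of this factor, inferred from the step between values and not from read totals, ran from 0.825 to 1. Per the study's methods both muscles were taken from the same 3 pigs, so the muscles do not stand for separate sets of animals. The labels do not tie a library to a pig, so the SD given is the spread between libraries. The muscle of each library was taken from its title, which its tissue label matched, although the source field names *longissimus dorsi* for all 6.

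The 4 *SIM1* DMRs lay within 9.80 kb, were annotated to 1 transcript (ENSSSCT00000004814) and held 52 CpGs in 1414 bp. Positions are those of the pig build Sscrofa10.2. Region 1, in an internal exon, ran on chromosome 1 from 76055221 to 76055397 with 10 CpGs. Region 2, in an internal exon as well, followed after 969 bp, from 76056367 to 76056489, with 7 CpGs. Region 3, in an internal intron, ran from 76060901 to 76061056 with 8 CpGs. Region 4, in the first intron, ran from 76064063 to 76065020 and was by far the longest, with 27 CpGs in 958 bp, against a median of 7 CpGs and 134 bp over all DMRs. It ranked 77th of all DMRs in the number of CpGs and 89th in length. The first intron had the highest coordinates, so the gene is read toward lower coordinates. No *SIM1* DMR was annotated to the promoter.

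All of the *SIM1* DMRs were annotated to shores of a CpG island, the flanks of a CpG-rich stretch, and region 1 to the island itself as well. Of all DMRs, 8.39% were annotated to an island or a shore, and 47 of them to both. Island DMRs were mostly lower in PMM, at 87.2%, and 27.9% were lower by over 4-fold. Shore DMRs were less one-sided, with 52.9% lower in PMM and 11.1% lower by over 4-fold. These annotations are the authors', and the islands' own positions were not analysed here.

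Region 4, in the first intron, had almost no signal in PMM. The LDM libraries had depths of 11.3, 9.67 and 11.3 (here and below in the order of replicates 1 to 3), whereas the PMM libraries had 0.224, 2.58 and 0.577. The muscles were far apart, and PMM replicate 2 was the highest of the PMM libraries. The means were 10.8 ± 0.951 in LDM and 1.13 ± 1.27 in PMM (SD, n = 3). On the log2(depth + 1) scale, which is used for all differences and understates the change of low depths, PMM minus LDM was -2.62 (SE 0.42), a 6.16-fold lower value. Its mean depth in PMM was the 12th lowest of all 15633 DMRs. Mean PMM depths under 2 occurred in 70 DMRs, or 0.448% of all. Among the 209 DMRs with at least 20 CpGs, 2 had such depths, region 4 being 1 of them. These are too few to compare large DMRs with the rest.

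The exon regions were low in PMM except in 1 library. Region 1 had LDM depths of 14.0, 11.1 and 15.3, against PMM depths of 3.88, 0.93 and 1.14. Region 2 had LDM depths of 16.4, 19.2 and 17.3, against PMM depths of 7.27, 0.665 and 1.34. PMM replicate 1 stood above the other PMM libraries in both regions, but below every LDM library. The means were 13.5 ± 2.16 and 1.98 ± 1.64 in region 1, and 17.6 ± 1.45 and 3.09 ± 3.64 in region 2 (SD, n = 3). The difference was -2.40 (SE 0.38) in region 1 and -2.55 (SE 0.52) in region 2, or 5.27-fold and 5.85-fold lower in PMM.

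Region 3, in the internal intron, kept the most signal in PMM. Its LDM depths were 22.3, 20.9 and 26.4, against PMM depths of 1.97, 9.74 and 6.63. Here PMM replicate 1 was the lowest library, not the highest. The means were 23.2 ± 2.90 and 6.11 ± 3.91 (SD, n = 3), with a difference of -1.95 (SE 0.41), 3.86-fold lower in PMM. In LDM this was the deepest of the *SIM1* regions, with 40.7% of all DMRs shallower, while 9.28% were shallower than region 4. The *SIM1* regions were thus below the median DMR in LDM, which had a mean depth of 27.1.

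**Figure D1:**
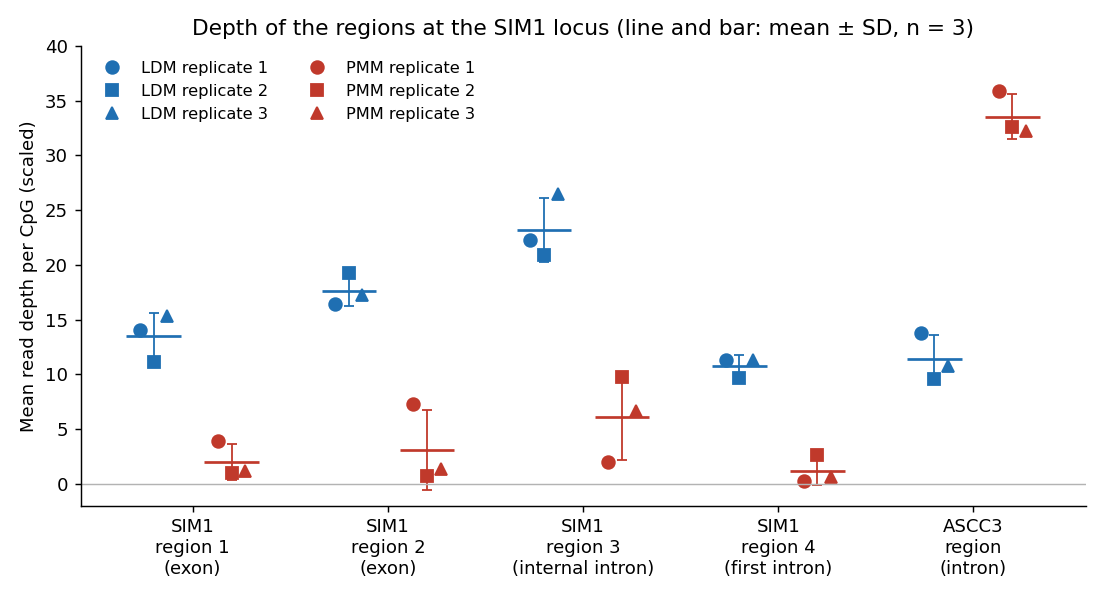
Scaled mean read depth per CpG (vertical axis) of the 4 SIM1 regions and the ASCC3 region in each library, with LDM in blue, PMM in red and a marker for each replicate; lines and bars are the mean and SD of 3 libraries. All PMM libraries lie below all LDM libraries in the SIM1 regions, with PMM means from 1.13 to 6.11, and above them in the ASCC3 region.

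In all 4 *SIM1* regions, no PMM library reached the depth of an LDM library. The muscles did not overlap in any listed DMR, with 44.0% lower and 56.0% higher in PMM in this way. The lack of overlap is thus a trait of the list and not of *SIM1*. Of the 1280 DMRs on chromosome 1, 52.3% were lower. Of the *SIM1* regions, 3 were lower by over 4-fold, where 4.96% of all DMRs were. The CpG-weighted mean depth over the gene was 14.2, 13.0 and 15.2 for the LDM libraries, against 2.14, 3.11 and 1.72 for PMM. This amounts to 14.1 ± 1.14 and 2.32 ± 0.712 (SD, n = 3), with a difference of -2.20 (SE 0.27), 4.61-fold lower. Relative to its size, the gene mean varied less between libraries than the regions did. Averaging over regions that rank the PMM libraries differently lowers this spread by construction. Without any 1 library, 3 or 4 *SIM1* regions were past 4-fold, while the count over all DMRs went from 775 to 1360 without PMM replicate 1 and to 308 without PMM replicate 2. With a pseudocount of 4, none (0) of the *SIM1* regions and 69 of all DMRs were past 4-fold.

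Region 4, in the first intron, stood apart from other DMRs of low CpG density. DMRs were divided into 4 classes of about equal size by CpG density, the number of CpGs per 100 bp. Region 4, at 2.82 CpGs per 100 bp, belonged to the sparsest class, in which 6.11% of 3910 DMRs were lower in PMM and 0.946% were lower by over 4-fold. Within that class it had the 4th largest decrease in PMM. Region 3 had 5.13 CpGs per 100 bp and lay in the next class, in which 23.9% were lower, while regions 1 and 2, at 5.65 and 5.69, lay in the third, where 62.9% of DMRs were lower. The densities of these 3 regions were near the median of 5.38 over all DMRs. When a smooth trend of depth with density was subtracted from each library, the difference in region 4 was -3.57 (SE 0.42). The trend was drawn from the listed DMRs, most of which are higher in PMM in the sparsest class. Its subtraction therefore lowers the difference of sparse DMRs in general, and that of the sparse *ASCC3* region went from 1.49 to 0.51.

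**Figure D2:**
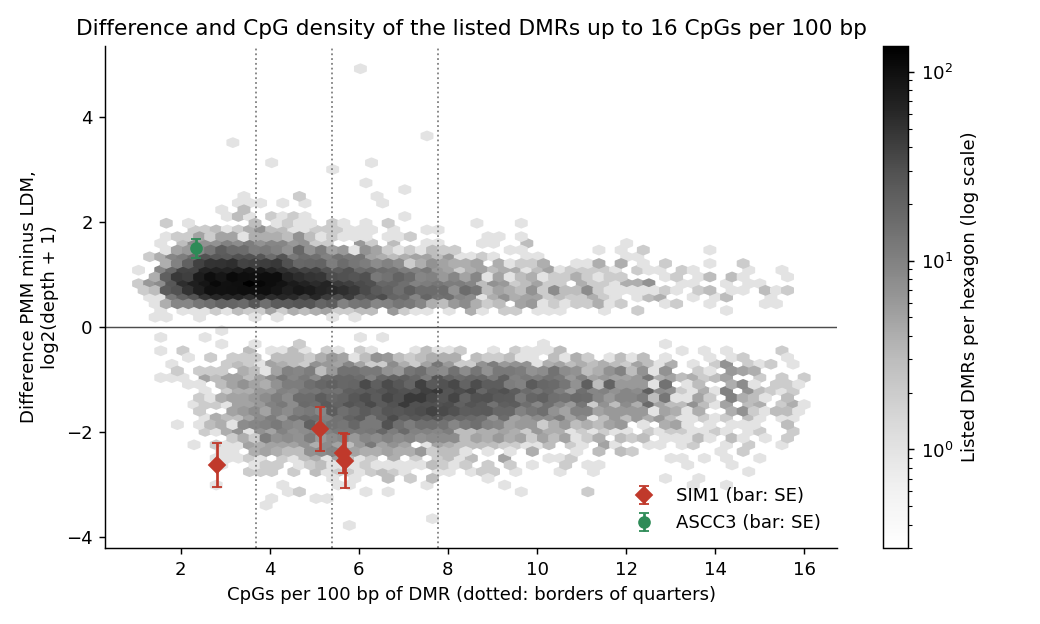
Difference PMM minus LDM in log2(depth + 1) (vertical axis) against CpGs per 100 bp (horizontal axis) for the 15371 DMRs of up to 16 CpGs per 100 bp, shaded by their number on a log scale, with the SIM1 regions (red) and the ASCC3 region (green) and their SE. The sparse SIM1 region at 2.82 CpGs per 100 bp lies at -2.62, where few DMRs fall.

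The *SIM1* regions were unevenly low in the individual PMM libraries. LDM libraries differed little, with coefficients of variation from 8.21% to 16.1% over the 4 regions. In PMM these were 82.9% in region 1, 118% in region 2, 64.0% in region 3 and 113% in region 4. All exceeded the median of 34.8% over the 3229 DMRs that were lower in PMM and had a PMM mean under 10. Low depth widens this spread, and its part in it was not tested. Region 4 in PMM replicate 1 rested on 5 overlaps of a read with a CpG over its 27 CpGs, and region 2 in PMM replicate 2 on 4 over its 7 CpGs.

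The exon and intron regions of *SIM1* changed places between PMM libraries. The CpG-weighted depth of the exon regions was 5.27 in PMM replicate 1, 0.821 in replicate 2 and 1.22 in replicate 3. That of the intron regions was 0.623, 4.22 and 1.96 in the same libraries. The exon regions were thus 8.46 times as deep as the intron regions in PMM replicate 1, and 0.195 times as deep in replicate 2. In LDM this ratio was 1.09, 1.18 and 1.09, so that the pooled exon and intron depths were nearly equal. The single intron regions were not, with LDM means of 23.2 in region 3 and 10.8 in region 4. Before scaling, the exon regions held 74, 12 and 20 read overlaps with a CpG in the PMM replicates, and the intron regions 18, 127 and 66. One read over several CpGs enters these sums several times, so they are not independent counts.

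The break fell between regions 2 and 3, which are 4411 bp apart. The log2 ratio of their depths, with 1 added to each, spanned 0.48 over the LDM libraries and 4.17 over the PMM libraries. The PMM span was ranked among 140 neighbouring pairs of DMRs in the promoter or body of 1 gene. Both DMRs of a pair were lower in PMM and at most 10 kb apart. The span of regions 2 and 3 was the widest, also with pseudocounts of 0.25 and 4. This comparison was chosen after the depths had been seen, so the rank describes the regions and is no support for a pattern. The median over these pairs was 0.98, and the next widest was in *GNPDA1*, at 3.18. The *SIM1* pairs of regions 1 and 2 and of regions 3 and 4 spanned 0.98 and 1.0. The order of the libraries was also unusual in the introns, where PMM replicate 1 was the lowest, since it was the lowest PMM library in 12.0% of the 6882 DMRs lower in PMM, and replicate 2 in 57%.

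**Figure D3:**
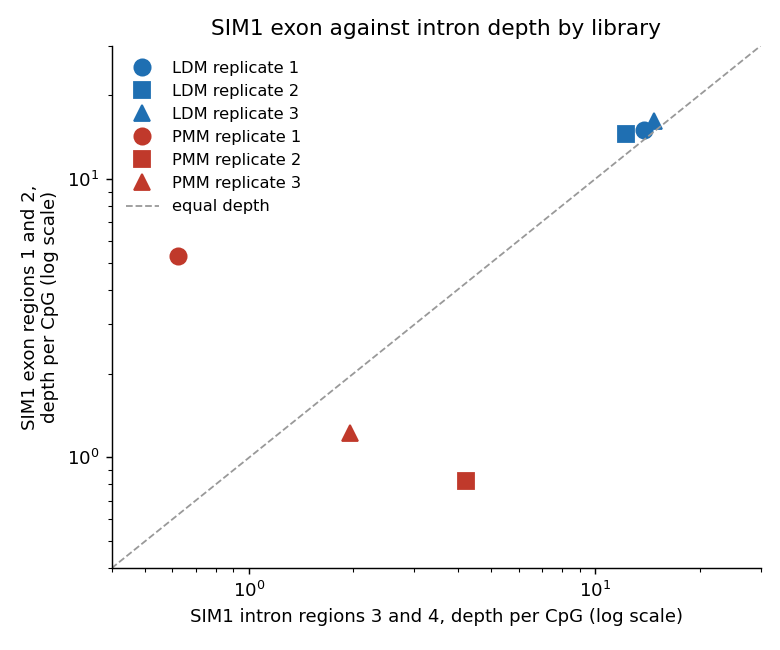
CpG-weighted mean depth per CpG of the SIM1 exon regions (vertical axis, log scale) against that of the intron regions (horizontal axis, log scale), with 1 point for each library and a dashed line of equal depth. The LDM libraries cluster near the line, while PMM replicate 1 lies above it at 5.27 against 0.623 and PMM replicate 2 below it at 0.821 against 4.22.

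The nearest DMR outside the gene ran the other way. The *ASCC3* region, in an internal intron on chromosome 1 from 76157054 to 76157267, lay 92.0 kb above the *SIM1* regions and had 5 CpGs. Its LDM depths were 13.8, 9.53 and 10.8, against PMM depths of 35.9, 32.6 and 32.2. The PMM libraries were all above the LDM libraries and close to each other. The means were 11.4 ± 2.19 and 33.6 ± 2.02 (SD, n = 3), and the difference was 1.49 (SE 0.17), 2.82-fold higher in PMM. DMRs higher in PMM without overlap made up 56.0% of the table, and at 2.34 CpGs per 100 bp this region lay in the sparsest density class as well. With the density trend subtracted, its difference was 0.51 (SE 0.20). Its LDM mean of 11.4 was close to the 10.8 of region 4 of *SIM1*, whereas the PMM means were 33.6 and 1.13.

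The window of 200 kb ended well short of the next DMR. The first one outside it, an intergenic DMR 281 kb above the *SIM1* regions, had a mean of 21.7 in LDM and 8.99 in PMM, with a difference of -1.19 (SE 0.20). On the other side the closest was 726 kb away, with a difference of -1.47 (SE 0.29). Within 5 Mb there were 24 DMRs beside those of *SIM1*, of which 20 were lower in PMM and 4 were higher, with a median difference of -1.24. By comparison, 44.0% of all DMRs and 52.3% of those on chromosome 1 were lower. Only 1 of the 24 was lower by over 4-fold, an intergenic DMR 1992 kb away at -2.50 (SE 0.40). Their median density was 7.09 CpGs per 100 bp, in the class in which 62.9% of all DMRs were lower. The direction of the *SIM1* regions was therefore shared by most listed regions around them, whereas a decrease of over 4-fold was shared by 1. Region 3 of *SIM1*, at -1.95 (SE 0.41), was itself short of 4-fold. Intergenic DMRs at -1.80 (SE 0.36) and -1.67 (SE 0.34) came near it.

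Among the genes within 5 Mb, *USP45*, a deubiquitinase of DNA repair, had intron DMRs at -0.95 (SE 0.15) and -1.64 (SE 0.23). The glutamate receptor gene *GRIK2* had an intron DMR at -0.94 (SE 0.19). *MMS22L*, which acts in the repair of replication forks, was at -1.27 (SE 0.28), the ubiquitin ligase gene *HACE1* at -1.14 (SE 0.27) and *LIN28B*, a repressor of let-7 microRNA maturation, at -1.43 (SE 0.22). Besides *ASCC3*, the gene with a symbol that was higher in PMM was *KLHL32*, at 0.87 (SE 0.22) in an exon. In the RefSeq gene order of a later pig assembly (Sscrofa11.1), used for names only, *MCHR2* and *ASCC3* flank *SIM1*, and *GRIK2*, *HACE1* and *LIN28B* follow *ASCC3*.

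**Figure D4:**
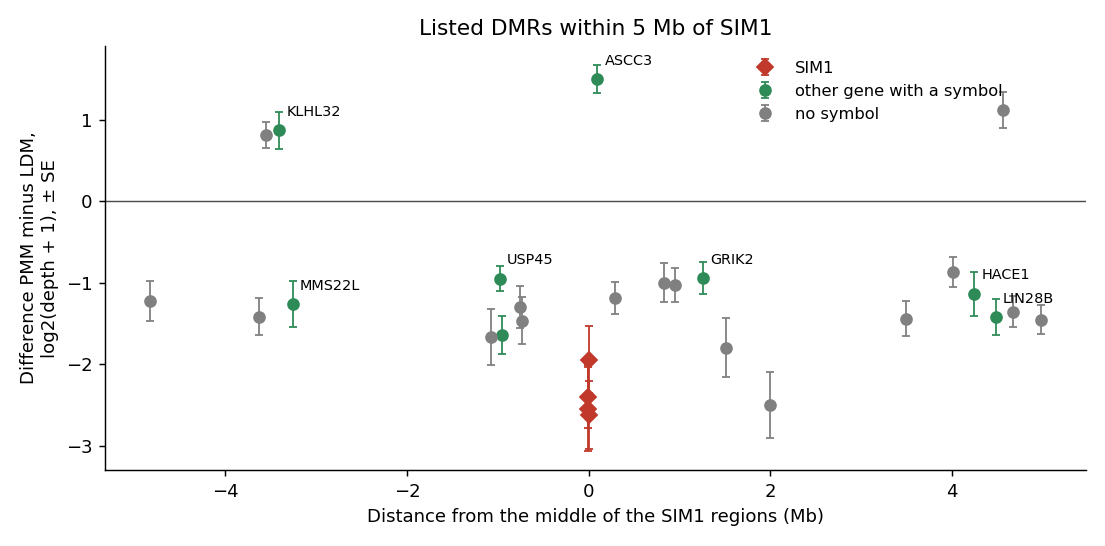
Difference PMM minus LDM in log2(depth + 1), with its SE (vertical axis), against distance from the middle of the SIM1 regions in Mb (horizontal axis) for the 28 DMRs within 5 Mb, with SIM1 in red, other genes with a symbol in green and the rest in grey. Most points lie below 0, the SIM1 regions between -1.95 and -2.62 are among the lowest, and ASCC3 next to them is at 1.49.

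Few genes had several DMRs that were all lower in PMM. Of 3513 genes with a DMR in the promoter or gene body, 232 had at least 4, and among these 12 had all of them lower, 41 had all of them higher and 179 had both. *SIM1* had the largest difference by CpG-weighted mean of the 12, followed by *ABLIM3* at -1.84 and *MYH9* at -1.63. It was also the only one of the 12 whose DMRs lay within 10 kb. Over all gene body DMRs, 42.1% were lower in PMM.

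The genes most like *SIM1* were sought among the 526 genes with at least 3 such DMRs, by the Euclidean distance of log2(CpG-weighted depth + 1) over the 6 libraries. Among the nearest were the hexosamine enzyme gene *GNPDA1* (1.64), the collagen gene *COL13A1* (1.68), the peptide hormone receptor gene *GLP2R* (1.74) and *DPP6* (1.79), which encodes a subunit of voltage-gated potassium channels. Over its DMRs, *GNPDA1* had LDM depths of 17.3, 15.3 and 18.9, against PMM depths of 5.98, 2.56 and 4.64. Each of these 4 genes had 3 DMRs, all lower in PMM. PMM replicate 2 was the lowest library in all 4, whereas it was the highest PMM library in *SIM1*.

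Of 22 genes looked up as the bHLH-PAS family, 9 had a DMR in the promoter or gene body. The list was drawn broadly and held the PER and NCOA genes beside the DNA-binding factors. Leaving *SIM1* aside, 8 genes had 10 DMRs, with 7 lower and 3 higher in PMM and a median difference of -0.88, while 42.9% of all 5700 DMRs in promoters and bodies of named genes were lower, with a median of 0.57. Of these 7 lower DMRs, 5 lay in the densest class of CpG density, in which 83.3% of all DMRs were lower, so the direction of most of them was that of other DMRs of like density. Of the 10, 1 was lower by over 4-fold, in the first intron of the clock gene *PER2*, at -2.50 (SE 0.47). *PER2* held further DMRs at -1.49 (SE 0.27) and 0.88 (SE 0.13). *ARNTL*, a core activator of the circadian clock, was lower at -1.32 (SE 0.27). The hypoxia factor gene *EPAS1* was higher at 1.15 (SE 0.20), and *NPAS3*, a factor of brain development, at 0.89 (SE 0.10). *PER2* was the only other gene of this broad list with several DMRs in the promoter or gene body. *ARNT*, *ARNT2* and the close relative *SIM2* had no listed DMR in the promoter or gene body.

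Of 16 genes looked up as hypothalamic partners, targets or relatives of *SIM1*, 0 had a DMR in the promoter or gene body, among them *OXT*, *AVP*, *CRH* and *MC4R*. The DMR list names only genes with a DMR, so the share over all genes is not known for any of the gene lists. A gene missing from it may lack a DMR or a matching symbol, so the absence is not a result about hypothalamic genes. Of 36 regulators of the dermomyotome and of migrating muscle precursors, 7 had 1 such DMR each, with 2 lower and 5 higher in PMM, beside the 42.9% lower among all DMRs of named genes, and so few DMRs say little about the list. With regions downstream of the genes added, 4 of 9 were lower. The decreases lay in the first intron of *LBX1* (-3.61, SE 0.38), which is required for muscle precursors to migrate into the limb, and in the promoter of the transcriptional cofactor gene *DACH1* (-1.63, SE 0.27). The largest increases were in the zinc finger gene *ZIC1* (2.43, SE 0.22) and the homeobox gene *EN1* (1.73, SE 0.20), both in the first intron. The 2 decreases lay in the class of CpG density in which 62.9% of all DMRs were lower, and *LBX1* was on a CpG island. Of all island DMRs, 87.2% were lower. The 5 increases lay in the 2 sparsest classes, in which 6.11% and 23.9% were lower. *SIM1* went the way of the 2 decreases and not of the 5 increases. The part of density in these directions was not tested.

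**Figure D5:**
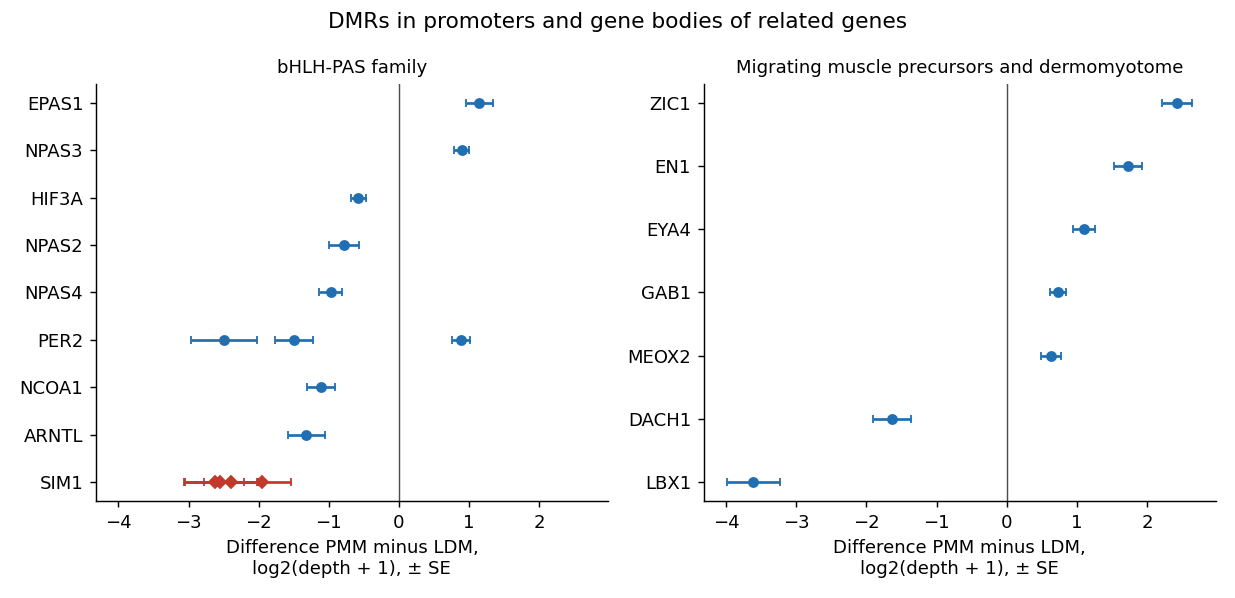
Difference PMM minus LDM in log2(depth + 1), with its SE (horizontal axis), of each DMR in the promoter or gene body, 1 row a gene. Genes of the broad bHLH-PAS list are on the left and regulators of muscle precursors on the right. The SIM1 regions (red) are the lowest row of the left list, with PER2 on both sides of 0, and the muscle precursor genes run from -3.61 in LBX1 to 2.43 in ZIC1.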

How the data were processed

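Per the study's methods, reads were aligned with SOAP2 to Sscrofa 10.2, multiply mapped reads were kept once, CpGs covered by fewer than 10 reads were dropped, and runs of neighbouring CpGs that differed between the muscles were joined into DMRs of 5 or more CpGs. What the authors deposited is a coverage signal: the mean read depth per CpG of each DMR in each library, which the values show to be scaled by 1 factor a library. In each library, 100% of the values times the number of CpGs were whole multiples of a step within 0.1 steps, from which read overlaps were recovered. The authors' mean, p-value and false discovery rate columns were not used. Regions outside the list were not analysed here, and library totals were not used.

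A DMR belonged to the locus when its symbol was SIM1 (human symbol, else pig symbol) or when its gap to the SIM1 DMRs was at most 200 kb. log2(depth + 1) of all 15633 DMRs was fitted with limma 3.58.1 in R 4.3.3, with muscle as the only term, for differences and moderated standard errors. The fit was tested on simulated data with normal noise. The SD of that noise was smaller than the SD within each SIM1 region, so the test does not bear on their standard errors. No p-value is given, since the regions were selected on this contrast. The members and the gene lists were chosen with earlier results of these data known. Named genes are those of the locus, of the DMRs within 5 Mb, the largest differences of each list and genes nearest to SIM1. One gene that this rule would name is not reported here and was left out of its list. ABLIM3 and MYH9 were named after their values were seen. Alternatives were other pseudocounts (0.25 and 4), other scalings, a subtracted density trend (lowess, fraction 0.3), a replicate block and leaving out each library.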

Additional observations from a re-analysis of the deposited data

How the results depend on the processing

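Every SIM1 difference stayed negative, and that of ASCC3 positive, under each alternative run. Leaving out a library or changing the pseudocount could hardly turn a sign, since the muscles did not overlap in any listed DMR. The count of all DMRs lower in PMM stayed at 6882 in those runs, and was 6881 with libraries scaled to their median. The steady sign is thus a trait of the list. With a pseudocount of 0.25 the difference was -3.41 in region 4 and -2.51 in the gene mean, and with a pseudocount of 4 it was -1.57 in region 1, -1.55 in region 4, -1.52 in the gene mean and 1.30 in ASCC3. With the density trend subtracted, it was -3.57 in region 4, -2.60 in the gene mean and 0.51 in ASCC3. Without each library in turn, the difference ran from -2.82 to -2.15 in region 1, -3.24 to -2.08 in region 2, -2.34 to -1.41 in region 3, -3.08 to -2.30 in region 4, -2.37 to -2.07 in the gene mean and 1.39 to 1.63 in ASCC3. In region 3 the smallest difference was without PMM replicate 1 and in region 2 the largest was. The number of all DMRs lower by over 4-fold was 775, and 69 with a pseudocount of 4, 510 with libraries scaled to their median, 1360 without PMM replicate 1 and 308 without PMM replicate 2. Of the SIM1 regions, 0 were past 4-fold with a pseudocount of 4. Beyond the construction of the alternatives, the cause of these changes was not tested. The PMM span between regions 2 and 3, a comparison chosen after seeing the data, was 5.21 and 2.48 with pseudocounts of 0.25 and 4. The replicate numbers were used as a replicate block, which left the gene mean at -2.20 and moved its SE from 0.27 to 0.31. Same-numbered libraries deviated together with correlations of 0.04, 0.24 and 0.02 over DMRs. The 0.24 of replicate 2 was the highest of all combinations, while LDM replicate 3 correlated best with PMM replicate 1, at 0.18. These values do not settle whether the numbers are pairs, and they were not taken as such. The windows of 100 kb and 500 kb held 5 and 6 DMRs. Depth limits the PMM values of single regions, which rest on as few as 4 read overlaps with a CpG.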
